A study of Mus musculus with 54 samples.

Results

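RNA levels were measured in naive CD4+ T cells of wild-type (WT) mice, meaning T helper cells that had not yet met antigen, before stimulation (0 h) and after 4 h of stimulation through the T cell receptor (TCR). The cells were chosen by their label alone, as the sorted WT libraries at these times, and they gave 6 of the 54 libraries of the series, with 3 biological replicates per time. The study compared stimulated with unstimulated cells of several genotypes to learn how far their transcriptional response to stimulation goes, and the 4 h against 0 h comparison in sorted WT cells is the reference for the sorted Lat-/- cells of the same experiment. WT cells (hDTR+, with the human diphtheria toxin receptor) and Lat-/- cells (hDTR-, without the signaling adaptor LAT) were sorted by flow cytometry from pooled lymph nodes and spleens of Lat fl-dtr maT-Cre mice on the C57BL/6 background, so that both carried the Cre transgene of maturing T cells. WT cells were those in which the Lat allele had not been deleted. Cells were stimulated on plates coated with anti-CD3 (3 µg/ml), with anti-CD28 (1 µg/ml) in solution. The 0 h cells were left unstimulated, and no library is labeled as a 4 h culture without the stimulus. Time in culture and the stimulus therefore cannot be told apart here. Lymph nodes and spleens were pooled from mice aged 8 to 10 weeks. For comparison, 3 sorted WT libraries at 20 h, 6 sorted Lat-/- libraries and 6 libraries of WT cells of another experiment, enriched on magnetic beads and stimulated in the same way, were used.

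As background, engagement of the TCR and of the costimulatory receptor CD28 activates calcium, ERK and NF-κB signaling, and within minutes to hours preformed transcription factors switch on immediate early genes, which do not need new protein synthesis. Cytokine genes, surface receptors and genes for cell growth follow, while genes that keep a naive T cell quiescent and recirculating through lymph nodes are turned down. DNA replication and division begin much later.

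The values are counts of reads per gene, shown as counts scaled to a common total (CPM) after scaling with TMM factors, which equalize the bulk of genes between libraries. WT totals ran from 23304899 to 26609358 counts at 0 h and from 24022430 to 28501095 at 4 h, and 3 counts, taken as the floor, stood for 0.105 to 0.140 CPM, a limit that covers counting error only. Replicates differed by more than counting noise, and library 2 at 0 h (chi-square per degree of freedom of 106 and 94.3 against libraries 1 and 3, which differed from each other by 21.4) and library 3 at 4 h (59.6 and 69.4, against 15.1) stood apart from their groups. Among the 1626 higher and 1788 lower genes that averaged at least 50 counts, library 3 was the lowest of the 4 h libraries for 81.0% of the higher and the highest for 82.8% of the lower genes, so it lay closer to the 0 h level. It also had the lowest share of mitochondrial reads, 0.983% against 1.94% and 2.45%. Without library 2 at 0 h, 2148 genes were called higher and 2635 lower.

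The label was checked against marker genes. All 12 markers of naive CD4 T cells were detected, with a summed level of 12140 to 14390 CPM at 0 h and 8767 to 10830 CPM at 4 h. Of 12 B cell markers, 11 were detected at 0 h and 9 at 4 h. Among them, Pax5 and Ms4a1 had 0 to 2 counts over the 3 libraries of either time, while Ighm, the heavy chain of IgM, lay between 713 and 927 CPM at 0 h and made up most of the summed B cell markers (729 to 941 CPM at 0 h, 104 to 209 at 4 h). Of 13 myeloid markers, 9 were detected at 0 h and 10 at 4 h. Their sums were 67.4 to 127 CPM at 0 h and 63.8 to 81.0 at 4 h, and Cd14 and Adgre1 were among those with 0 counts at 0 h. NK cell markers summed to 85.9 to 129 CPM and then to 65.5 to 76.1 CPM, CD8 T cell markers to 30.3 to 35.0 and 16.9 to 22.0 CPM, and γδ T cell markers to 31.7 to 45.2 and 16.1 to 22.6 CPM. Red blood cell markers summed to at most 1.92 CPM in any of these libraries. Regulatory T cell markers summed to 245 to 287 CPM at 0 h and 395 to 428 CPM at 4 h, with Foxp3, their defining factor, at 55.8 ± 6.14 and 35.3 ± 5.18 CPM (SD, n = 3). In these bulk libraries, fewer cells of a type and less RNA per cell cannot be told apart. Lat itself was at 292, 214 and 241 CPM at 0 h and 314, 351 and 262 CPM at 4 h, against 15.3 ± 3.76 and 7.92 ± 2.97 CPM in Lat-/- cells (SD, n = 3), and it did not pass the test over time (log2 change 0.31, SE 0.15/0.22, adjusted p 0.111/0.197). Hbegf reads were at 29.6, 37.9 and 25.4 CPM at 0 h and 41.2, 36.0 and 30.8 CPM at 4 h, against 0.512 ± 0.241 and 0.539 ± 0.327 CPM in Lat-/- cells. The human DTR used for the sort is encoded by the human counterpart of this gene, and reads of the transgene and of the mouse gene cannot be told apart in these counts.

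After 4 h, 2236 of 27780 genes tested were called higher (8.05%) and 2581 lower (9.29%). A call needed more than a 2-fold change together with an adjusted p (Benjamini-Hochberg) below 0.05 in the quasi-likelihood test of edgeR. In this fit, which kept every gene with a read, the prior degrees of freedom were infinite, so each gene was given the spread of the common trend and its own replicates did not widen its error. The SE and adjusted p of this fit are therefore too small for genes that vary among replicates. After edgeR's filter on low counts, which left 13928 genes, the median prior degrees of freedom were 6.46 and 2148 genes were higher and 2418 lower, of which 2033 and 2352 were also called without the filter. Where SE and adjusted p are given as pairs with a slash, the first is from the fit of all genes with a read and the second from the filtered fit, in which each gene's own spread counts. SE stands for the size of the log2 change divided by the square root of the test's F value. It is thus derived from the test and not estimated apart from it. Fold changes were between 2 and 4 for 1299 of the higher genes, between 4 and 16 for 633, and above 16 for 304. Of the lower genes, 1674, 744 and 163 fell into these classes. The higher genes took 11.0% to 11.1% of all counts at 0 h and 28.8% to 33.8% at 4 h, and the lower genes 18.4% to 19.5% and then 4.58% to 7.12%. Protein-coding genes made up 83.1% of the higher and 85.6% of the lower genes. Values of the 4 h and 0 h libraries did not overlap, without regard to size, in 17.5% of all genes on the higher and 16.2% on the lower side. Without TMM factors, the median change of genes with at least 50 counts shifted by -0.238 on the log2 scale, and 1635 genes were higher and 3333 lower, so that 32.9% of the called genes were higher, against 46.4% with the factors. Without library 3 at 4 h, 2262 genes were higher and 2869 lower.

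**Figure D1:**
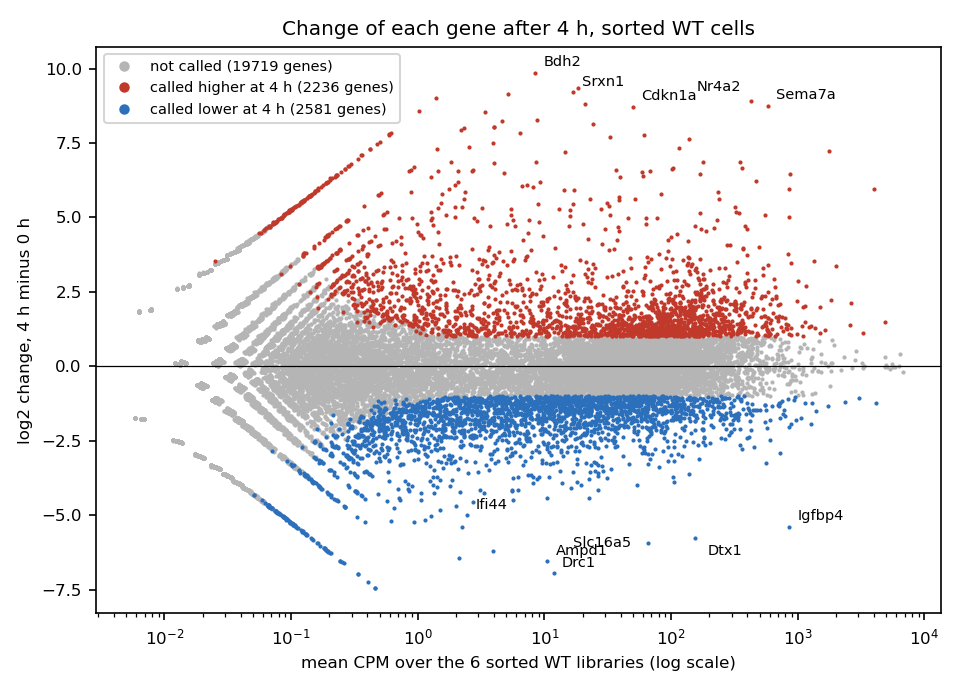
Log2 change from 0 h to 4 h (vertical axis) against the mean CPM over the 6 sorted WT libraries (horizontal axis, log scale), with 1 point for each gene that had a read in these libraries. Red points are the 2236 genes called higher and blue points the 2581 called lower, and the named genes lie at the edges of the cloud, from Bdh2 at the top to Drc1 at the bottom; the diagonal rows at the left are genes with a few reads in all.

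The genes with the highest fold change among those that averaged at least 50 counts were at or near 0 before stimulation. Nr4a2 (chromosome 2, 57106830 to 57124003, minus strand of GRCm38), a nuclear receptor of the immediate early class, was at 1.92, 1.61 and 1.82 CPM at 0 h and 822, 1004 and 738 CPM at 4 h (log2 change 8.90, SE 0.22/0.48, adjusted p too small to store/4.65e-11). Sema7a (chromosome 9, 57940112 to 57962865, plus strand), which encodes a membrane-anchored semaphorin, was at 2.43, 2.07 and 3.47 CPM at 0 h and 1209, 1237 and 1025 CPM at 4 h (log2 change 8.76, SE 0.21/0.55, adjusted p too small to store/3.33e-10). In both genes every 4 h library lay far above every 0 h library. Cdkn1a (chromosome 17, 29090976 to 29100727, plus strand), which encodes the cyclin-dependent kinase inhibitor p21, was at 0.196, 0.289 and 0.210 CPM at 0 h and 104, 96.3 and 99.0 CPM at 4 h (log2 change 8.72, SE 0.28/0.35, adjusted p 1.41e-202/2.88e-12). Atf3, a stress-induced transcription factor, was at 0.0392, 0 and 0.210 CPM at 0 h and 48.4, 42.2 and 35.5 CPM at 4 h (log2 change 8.80, SE 0.36/0.57, adjusted p 1.3e-126/4.54e-10). By 20 h their means were 21.5, 22.2, 23.9 and 2.05 CPM, each below the 4 h level. Srxn1, which encodes sulfiredoxin, an antioxidant enzyme, was at 0.0392, 0.124 and 0 CPM at 0 h and 36.2, 36.9 and 28.1 CPM at 4 h (log2 change 9.22, SE 0.42/0.52, adjusted p 3.34e-103/9.27e-11). The noncoding RNA gene Gm17322 (chromosome 9, 57998041 to 58007451, plus strand) was at 0.0392, 0 and 0.105 CPM at 0 h and 39.2, 40.5 and 30.7 CPM at 4 h (log2 change 9.35, SE 0.42/0.47, adjusted p 4.33e-107/2.39e-11).

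Some of these genes had 1 to 3 counts over all 0 h libraries, and for them a ratio is given in place of a fitted fold. Bdh2, which encodes a dehydrogenase of ketone body and siderophore metabolism, was at 0, 0 and 0.0350 CPM at 0 h and 20.9, 16.1 and 13.5 CPM at 4 h, a ratio of 1297 with a 95% counting interval from 232 to 51290.0 (adjusted p 6.92e-80/7.19e-08). Samd4 was at 0, 0 and 0.0350 CPM at 0 h and 10.5, 11.7 and 8.53 CPM at 4 h, a ratio of 791 with a 95% counting interval from 142 to 31290.0 (adjusted p 3.17e-40/1.64e-10). The groups did not overlap in either gene, and the 20 h means were 13.4 and 0.249 CPM. The other genes named by this rule were Spin4 (log2 change 8.12, SE 0.32/0.65, adjusted p 8.41e-140/5.64e-09), Lipg, which encodes endothelial lipase (log2 change 8.25, SE 0.49/0.67, adjusted p 1.72e-62/2.13e-08), Eml1 (ratio 357) and Gm37805, an unverified transcript (ratio 526).

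At the other end, the rule named genes that were expressed in resting cells and close to lost at 4 h. Dtx1 (chromosome 5, 120680202 to 120711927, minus strand), which encodes the ubiquitin ligase Deltex 1 and is a target of Notch signaling, was at 278, 338 and 292 CPM at 0 h and 5.70, 5.50 and 5.47 CPM at 4 h (log2 change -5.77, SE 0.19/0.21, adjusted p 4.43e-200/9.55e-13). Igfbp4, which encodes a binding protein of insulin-like growth factors, was at 1404, 1992 and 1634 CPM at 0 h and 33.0, 40.7 and 46.8 CPM at 4 h (log2 change -5.38, SE 0.18/0.24, adjusted p 1.88e-199/6.91e-12). Slc16a5, a transporter of the monocarboxylate family, was at 121, 128 and 138 CPM at 0 h and 1.87, 1.97 and 2.49 CPM at 4 h (log2 change -5.92, SE 0.20/0.20, adjusted p 1e-190/4.89e-13). In each of these genes every 4 h library lay far below every 0 h library. By 20 h, Igfbp4 was at 467 CPM, while Dtx1 and Slc16a5 were at 10.8 and 1.93 CPM. Slc16a5 (chromosome 11, 115462474 to 115474398, plus strand) overlaps the antisense gene Gm11695 (chromosome 11, 115462045 to 115463454, minus strand), which fell too (log2 change -6.21, SE 0.42/0.43, adjusted p 1.02e-46/1.09e-09), and since the use of strand in counting is not given in the sources used here, reads in the overlap could belong to either. Drc1, a gene of motile cilia, was at 18.1, 30.1 and 22.0 CPM at 0 h and 0.0935, 0.229 and 0.226 CPM at 4 h (log2 change -6.94, SE 0.34/0.41, adjusted p 1.15e-89/1.47e-10), and Ampd1, which encodes AMP deaminase 1, was at 20.1, 25.4 and 17.2 CPM at 0 h and 0.280, 0.321 and 0.0754 CPM at 4 h (log2 change -6.55, SE 0.38/0.39, adjusted p 2.01e-64/1.48e-10). The remaining genes were Kcnh3, a potassium channel gene (log2 change -4.50, SE 0.34/0.30, adjusted p 8.37e-38/6.83e-10), Aqp9, an aquaglyceroporin gene (log2 change -5.40, SE 0.58/0.63, adjusted p 1.89e-19/7.66e-07), Fam240a (log2 change -4.70, SE 0.53/0.54, adjusted p 1.99e-17/6.03e-07), the interferon-stimulated genes Ifi44 (log2 change -5.00, SE 0.52/0.69, adjusted p 1.99e-20/5.56e-06) and Ifit3b (log2 change -4.57, SE 0.42/0.60, adjusted p 2.19e-26/3.06e-06), and the processed pseudogene Gm6545 with 3 counts left at 4 h (ratio 101, 95% counting interval 34.2 to 491). Reads of Ifit3b and Gm6545 could have been shared with near-identical copies, so their levels are uncertain.

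The response was then described over 31 gene lists with 617 different genes tested, some in more than 1 list, against the background of 8.05% of all genes called higher, 9.29% called lower and a median log2 change of 0.00. Most list genes, 531 of them, averaged at least 50 counts. Among all 10123 genes at that level, 16.1% were called higher and 17.7% lower, so a list with shares near these does not stand out.

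Among 25 immediate early transcription factors, 15 were higher and 3 lower, with a median log2 change of 1.59. The median was 2.16 when 2 genes with at most 3 counts at each time were left out. Nr4a1 and Nr4a3, orphan nuclear receptors related to Nr4a2, rose in every library. Nr4a1, a widely used reporter of TCR signal strength, was at 125, 85.9 and 167 CPM at 0 h and 8539, 8646 and 6426 CPM at 4 h (log2 change 5.96, SE 0.18/0.62, adjusted p 9.3e-241/1.47e-07). Nr4a3 was at 27.8, 20.3 and 22.1 CPM at 0 h and 3618, 4205 and 2653 CPM at 4 h (log2 change 7.22, SE 0.19/0.38, adjusted p 4.38e-305/3.66e-11). Per kb of exon, Nr4a1 went from rank 1416 to rank 13 of all genes, and Nr4a3 from rank 7316 to rank 53. The Egr zinc finger factors rose too. Egr1 was at 128, 84.3 and 127 CPM at 0 h and 1570.1, 1625 and 1474 CPM at 4 h (log2 change 3.78, SE 0.16/0.35, adjusted p 1.43e-114/3.67e-08), and Egr3 at 38.0, 23.1 and 34.8 CPM at 0 h and 954, 1199 and 1088 CPM at 4 h (log2 change 5.08, SE 0.18/0.34, adjusted p 7.52e-180/6.02e-10). Egr2 was at 0.431, 0.0413 and 0.245 CPM at 0 h and 15.0, 17.9 and 14.8 CPM at 4 h (log2 change 6.01, SE 0.40/0.58, adjusted p 8.12e-50/6.24e-08). Egr4 had 2 counts over the 0 h and 203 over the 4 h libraries, a ratio of 114 with a 95% counting interval from 31.1 to 947.

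The AP-1 genes, whose proteins bind DNA as pairs, did not move as a block. Fosl2 was at 13.4, 6.20 and 17.3 CPM at 0 h and 879.8, 1112 and 766 CPM at 4 h (log2 change 6.22, SE 0.19/0.29, adjusted p 1.81e-238/1.19e-11). Fosl1 had 2 counts at 0 h and 354 at 4 h, a ratio of 199 with a 95% counting interval from 54.6 to 1647. Fos itself was at 555, 271 and 469.7 CPM at 0 h and 147, 141 and 162 CPM at 4 h (log2 change -1.52, SE 0.15/0.36, adjusted p 2.9e-22/0.00143) and Jun at 331, 161 and 349 CPM at 0 h and 92.5, 77.8 and 58.7 CPM at 4 h (log2 change -1.88, SE 0.15/0.45, adjusted p 1.57e-32/0.00155), lower at 4 h in every library. Batf fell as well (log2 change -1.5, SE 0.17/0.19, adjusted p 1.1e-17/2.45e-06). Junb, at 1509, 789 and 1912 CPM at 0 h and 806, 739 and 743 CPM at 4 h, did not reach the fold threshold (log2 change -0.88, SE 0.15/0.30, adjusted p 1.79e-08/0.0214), and neither did Fosb (log2 change 0.63, SE 0.17/0.41, adjusted p 0.00144/0.181). Library 2 at 0 h was the lowest of its group for 18 of the 21 genes of this list with at least 50 counts, and in Jun and Fos it had 161 and 271 CPM against 331 to 349 and 470 to 555 CPM in the other libraries. Maff and Mafk, small Maf proteins, rose (log2 change 3.95, SE 0.21/0.24, adjusted p 3.24e-77/1.63e-10, and log2 change 1.59, SE 0.15/0.13, adjusted p 9.72e-24/5.85e-09). Jund and Batf3 had too few reads in these libraries for a level to be given, and they count among the genes of the list that were not called.

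Of the NF-κB subunits and inhibitors, 7 of 13 were higher and 0 lower, with a median of 1.51. Among genes that restrain NF-κB, Nfkbib and Nfkbid were called higher, while Nfkbia, Nfkbie and Tnfaip3 were not called. Rel, the c-Rel subunit, was at 59.1, 38.6 and 73.9 CPM at 0 h and 900.4, 1124 and 746 CPM at 4 h (log2 change 4.01, SE 0.17/0.22, adjusted p 5.51e-125/6.71e-11), and Nfkb1, the p105 precursor of p50, at 337, 286 and 307 CPM at 0 h and 2243, 2249 and 1565 CPM at 4 h (log2 change 2.70, SE 0.16/0.16, adjusted p 9.14e-66/9.75e-11). Nfkbid, an inhibitor of the IκB family, went from 53.7 to 612 CPM (log2 change 3.51, SE 0.16/0.31, adjusted p 4.41e-99/1.94e-08), while Nfkbia, which encodes IκBα, went from 326 to 549 CPM and was not called (log2 change 0.75, SE 0.15/0.17, adjusted p 2.48e-06/0.000847). Among 13 NFAT and calcineurin genes, 2 were higher and 3 lower, with a median of -0.30. Nfatc1 was at 205, 138 and 195 CPM at 0 h and 1175, 1343 and 892 CPM at 4 h (log2 change 2.66, SE 0.16/0.17, adjusted p 6.69e-63/4.42e-10), whereas Nfatc2 went from 107 to 42.5 CPM (log2 change -1.33, SE 0.15/0.17, adjusted p 1.48e-16/2.52e-06). Orai1, the pore of the calcium channel opened after TCR engagement, was at 51.9, 79.5 and 55.9 CPM at 0 h and 549, 513 and 473 CPM at 4 h (log2 change 3.03, SE 0.16/0.16, adjusted p 3.26e-77/3.81e-11), and its sensor Stim1 went from 199.7 to 104 CPM (log2 change -0.95, SE 0.15/0.15, adjusted p 2.69e-09/3.64e-05). Without library 3 at 4 h, 5 genes of the NFAT list were lower.

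Of 25 interferon regulatory and lineage factors, 12 were higher and 4 lower, with a median of 0.57. Irf4, which scales with TCR signal in T cells, was at 22.0, 12.9 and 23.7 CPM at 0 h and 1820.5, 2119.6 and 1234 CPM at 4 h (log2 change 6.46, SE 0.19/0.49, adjusted p 3.03e-258/2.86e-09) and stayed at 1017 ± 11.5 CPM (SD, n = 3) at 20 h. Irf8 was at 9.92, 8.39 and 10.2 CPM at 0 h and 202, 171 and 164 CPM at 4 h (log2 change 4.23, SE 0.18/0.45, adjusted p 1.42e-125/1.82e-07). Bcl6, the factor of follicular helper T cells, was at 27.8, 16.9 and 23.4 CPM at 0 h and 266, 282 and 206 CPM at 4 h (log2 change 3.47, SE 0.17/0.20, adjusted p 7.38e-92/1.22e-10) and at 7.26 ± 1.43 CPM at 20 h. The 4 h libraries lay above all 0 h libraries in these 3 genes, with library 3 the lowest of them. Bhlhe40 went from 3.14 to 74.1 CPM (log2 change 4.54, SE 0.20/0.52, adjusted p 6.89e-114/5.63e-07) and Hif1a, the oxygen-regulated factor, from 114 to 522 CPM (log2 change 2.19, SE 0.15/0.16, adjusted p 7.06e-44/1.53e-09). Among factors of the T helper subsets, Tbx21 (T-bet) went from 2.38 to 9.69 CPM (log2 change 2.03, SE 0.30/0.64, adjusted p 1.25e-10/0.0104) and Gata3 from 58.2 to 25.3 CPM (log2 change -1.20, SE 0.17/0.12, adjusted p 5.75e-12/9.23e-08).

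Cytokine genes were called higher in 13 of 23 and lower in 4, with a median of 2.13. The median was 2.09 with 4 genes that had 0 counts at 1 time set to their bounds. For it, 3 genes with at most 3 counts at each time were left out. After the filter on low counts 9 were higher and 4 lower, and 14 of the 23 had fewer than 50 counts on average. Tnf was at 19.0, 16.2 and 17.2 CPM at 0 h and 756, 583 and 574 CPM at 4 h (log2 change 5.19, SE 0.18/0.48, adjusted p 9.11e-182/3.75e-08), and Lta, its neighbor that encodes lymphotoxin α, at 21.4, 26.2 and 22.7 CPM at 0 h and 286, 228 and 221 CPM at 4 h (log2 change 3.39, SE 0.17/0.16, adjusted p 9.32e-89/1.62e-11). Il2, the growth factor of T cells, was at 0.196, 0.372 and 0.0350 CPM at 0 h and 31.4, 30.3 and 25.5 CPM at 4 h (log2 change 7.2, SE 0.30/0.67, adjusted p 7.42e-126/3.81e-08). In Il2 every 4 h library had more than 25 CPM, and the 20 h mean was higher still, at 71.9 ± 23.1 CPM (SD, n = 3), whereas Tnf was down to 112 ± 7.28 CPM. Lif went from 1.14 to 30.1 CPM (log2 change 4.71, SE 0.26/0.42, adjusted p 5.07e-72/2.33e-08), and Tgfb1 from 158 to 524 CPM (log2 change 1.73, SE 0.15/0.12, adjusted p 1.82e-28/6.87e-10). Cytokines of differentiated helper cells were measured with few reads. Ifng went from 0.274 to 0.865 CPM, a change not called with DESeq2 or after edgeR's filter on low counts, and Il4 went from 0.113 to 0.842 CPM. Il3 had 0 counts at 0 h and 81 at 4 h and was thus at least 30.3-fold higher (with 3 counts over the 3 libraries as the floor), and Il17a with 0 and 32 counts was at least 12.0-fold higher, with nearly all of its 4 h reads in library 3 (0.0467, 0.0458 and 1.13 CPM). Il17a was not called with DESeq2, after the filter on low counts or without library 3 at 4 h. Osm, Il16, Csf1 and Tgfb3 were the genes called lower.

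Chemokine genes were higher in 8 of 12 and lower in 1, with a median of 2.57. It was 2.62 with 1 gene set to its bound and 1 gene with at most 3 counts at each time left out. Xcl1, lymphotactin, was at 1.25, 2.23 and 0.770 CPM at 0 h and 266, 211 and 206 CPM at 4 h (log2 change 7.34, SE 0.22/0.72, adjusted p 1.98e-251/8.26e-08), and Ccl4, another chemokine gene, at 0.510, 0.785 and 0.385 CPM at 0 h and 133, 93.1 and 138 CPM at 4 h (log2 change 7.77, SE 0.24/0.66, adjusted p 2.96e-222/1.39e-08). Ccl3, from the same cluster, was at 0.588, 0.0827 and 0.490 CPM at 0 h and 18.8, 15.0 and 18.3 CPM at 4 h (log2 change 5.45, SE 0.31/0.80, adjusted p 2.59e-66/1.02e-05). Values did not overlap between times in these 3 genes, and their 20 h levels were 91.8 ± 68.6, 78.5 ± 31.3 and 15.6 ± 5.76 CPM (SD, n = 3). Ccl5 was the gene called lower (log2 change -1.19, SE 0.21/0.57, adjusted p 2.1e-07/0.0891), a call that was not kept with DESeq2 or after the filter on low counts. In the list of 26 cytokine receptors, 5 were higher and 6 lower, with a median of 0.03. Tgfbr1 and Il21r were among the higher, and Il18r1 (log2 change -2.0, SE 0.17/0.16, adjusted p 7.32e-32/8.42e-09) and Il10ra (log2 change -1.42, SE 0.18/0.21, adjusted p 9.48e-15/1.46e-05) among the lower genes. Il7r, the receptor for the survival cytokine IL-7, was at 577, 548 and 603 CPM at 0 h and 309.6, 369.8 and 751 CPM at 4 h and was not called (log2 change -0.27, SE 0.15/0.29, adjusted p 0.172/0.47), also without library 3 at 4 h (log2 change -0.79, adjusted p 1.2e-06).

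Surface ligands of the TNF superfamily, by which helper T cells address B cells, dendritic cells and each other, were higher in 7 of 12 and lower in 1. Their median was 2.64, and 3.07 when 3 genes with at most 3 counts at each time were left out. Tnfsf11, RANK ligand, was at 7.14, 7.44 and 9.56 CPM at 0 h and 451, 465 and 469 CPM at 4 h (log2 change 5.84, SE 0.19/0.58, adjusted p 7.34e-212/8.03e-08). Tnfsf14, LIGHT, was at 1.29, 2.77 and 2.14 CPM at 0 h and 218, 190.1 and 212 CPM at 4 h (log2 change 6.64, SE 0.21/0.42, adjusted p 8.67e-212/3.38e-10). Cd40lg, the signal for B cell help, was at 125, 102 and 114 CPM at 0 h and 976, 1011 and 873 CPM at 4 h (log2 change 3.07, SE 0.16/0.13, adjusted p 7.99e-80/5.75e-12). The groups did not overlap in these 3 genes, and per kb of exon Cd40lg rose from rank 488 to rank 39 of all genes and was back at 86.4 ± 8.33 CPM (SD, n = 3) at 20 h. Fasl, the death ligand, was at 12.6, 13.2 and 10.7 CPM at 0 h and 204, 156 and 175 CPM at 4 h (log2 change 3.88, SE 0.18/0.16, adjusted p 5.88e-101/5.01e-12). Tnfsf10, which encodes the death ligand TRAIL and is also induced by interferon, fell from 30.6 to 4.22 CPM (log2 change -2.86, SE 0.20/0.21, adjusted p 1e-44/1.8e-09). Of 14 TNF receptors, 6 were higher and 1 lower, with a median of 0.76. Tnfrsf9, the costimulatory receptor 4-1BB, was at 25.0, 27.9 and 27.9 CPM at 0 h and 1949, 1695 and 1399.7 CPM at 4 h (log2 change 5.96, SE 0.18/0.45, adjusted p 1.29e-229/3.07e-09), and Tnfrsf4, OX40, at 25.0, 37.1 and 29.0 CPM at 0 h and 213, 189.5 and 261 CPM at 4 h (log2 change 2.87, SE 0.16/0.39, adjusted p 7.63e-69/4.45e-06). At 20 h the first had fallen back to 343 ± 21.5 CPM and the second had risen on to 525 ± 30.8 CPM.

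Receptors of the CD28 family and related checkpoint genes were higher in 13 of 20 and lower in 2, with a median of 1.73. Pdcd1, the inhibitory receptor PD-1, was at 7.80, 11.8 and 9.00 CPM at 0 h and 536, 454 and 425 CPM at 4 h (log2 change 5.63, SE 0.18/0.47, adjusted p 5.05e-202/1.06e-08), and Cd274, its ligand PD-L1, at 36.3, 24.8 and 37.6 CPM at 0 h and 594, 604 and 456 CPM at 4 h (log2 change 4.07, SE 0.17/0.41, adjusted p 1.74e-125/9.16e-08). Slamf1 went from 31.2 to 766 CPM (log2 change 4.62, SE 0.17/0.26, adjusted p 6.73e-154/9.32e-11), and Pdcd1lg2 from 1.89 to 64.1 CPM (log2 change 5.08, SE 0.22/0.39, adjusted p 5.02e-113/3.1e-09). All 4 genes rose in every library. Cd28 and Icos rose from 9.27 to 33.6 and from 2.47 to 13.4 CPM (log2 change 1.85, SE 0.18/0.21, adjusted p 4.9e-23/5e-07, and log2 change 2.43, SE 0.25/0.26, adjusted p 2e-20/1.92e-07). Ctla4 was at 2.63, 1.28 and 4.17 CPM at 0 h and 2.94, 3.57 and 9.73 CPM at 4 h, just past the threshold (log2 change 1.01, SE 0.27/0.54, adjusted p 0.000914/0.111), and it lost the call in 8 of 13 alternative settings, among them the fits without library 3 at 4 h and without library 2 at 0 h. Cd226, an activating receptor, fell (65.0, 52.1 and 78.7 CPM at 0 h and 6.54, 8.39 and 15.3 CPM at 4 h, log2 change -2.69, SE 0.17/0.23, adjusted p 6.16e-55/1.42e-08) and had risen to 131 ± 6.34 CPM (SD, n = 3) at 20 h. Cd5, a TCR-proximal modulator that follows TCR signal, was at 621, 633 and 577 CPM at 0 h and 1617, 1687 and 1335 CPM at 4 h (log2 change 1.34, SE 0.15/0.16, adjusted p 2.9e-18/7.31e-07), and its relative Cd6 at 667, 617 and 638 CPM at 0 h and 1018, 1010.4 and 873 CPM at 4 h (log2 change 0.59, SE 0.15/0.14, adjusted p 0.00027/0.000807), which was not called.

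Genes of the TCR signal itself split, with 11 of 42 higher, 7 lower and a median of -0.07. The receptor chains Cd3d, Cd3e, Cd3g and Cd247 were not called, with log2 changes from -0.76 to 0.04. The kinase gene Zap70 was at 316, 405 and 282 CPM at 0 h and 1224, 1082 and 924 CPM at 4 h (log2 change 1.69, SE 0.15/0.15, adjusted p 1.48e-27/2.21e-08), and Lcp2, which encodes the adaptor SLP-76, went from 449 to 1832 CPM (log2 change 2.03, SE 0.15/0.11, adjusted p 3.43e-39/3.03e-11). Among inhibitors of the signal, Cblb was at 195, 137 and 189 CPM at 0 h and 690.3, 838 and 507 CPM at 4 h (log2 change 1.97, SE 0.15/0.18, adjusted p 3.19e-36/3.05e-08), Ubash3b went from 44.4 to 691 CPM (log2 change 3.96, SE 0.17/0.20, adjusted p 1.5e-120/2.29e-11) and Ptpn22 from 175 to 990.4 CPM (log2 change 2.5, SE 0.16/0.13, adjusted p 4.79e-56/2.39e-11). In contrast, Themis, an adaptor of developing and mature T cells, was at 205, 176 and 239.7 CPM at 0 h and 38.3, 36.2 and 67.5 CPM at 4 h (log2 change -2.13, SE 0.16/0.20, adjusted p 8.79e-41/4.2e-08). It was lower in every 4 h library, while Malt1 and Bcl10, which link the TCR to NF-κB, rose (log2 change 1.66, SE 0.15/0.22, adjusted p 4.26e-26/2.73e-06, and log2 change 1.24, SE 0.15/0.11, adjusted p 4.32e-15/1.82e-08). Without library 3 at 4 h, 11 genes of this list were lower, not 7.

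Feedback genes of the ERK pathway were higher in 11 of 25 and lower in 6, with a median of 0.88. Spry1, a Sprouty inhibitor of the pathway, was at 5.37, 5.00 and 7.81 CPM at 0 h and 812, 706 and 579 CPM at 4 h (log2 change 6.84, SE 0.19/0.61, adjusted p 5.88e-266/2.13e-08), and Dusp4, an ERK phosphatase, at 4.78, 1.45 and 5.50 CPM at 0 h and 113, 146 and 111 CPM at 4 h (log2 change 4.96, SE 0.19/0.53, adjusted p 3.96e-145/2.13e-07). Spred1 and Dusp16 rose too (log2 change 3.62, SE 0.18/0.25, adjusted p 4.16e-85/8.34e-10, and log2 change 3.58, SE 0.21/0.34, adjusted p 2.57e-61/4.66e-08). Dusp1, by contrast, was at 182, 79.8 and 222 CPM at 0 h and 68.8, 74.2 and 84.6 CPM at 4 h (log2 change -1.09, SE 0.15/0.31, adjusted p 1.55e-11/0.00708), and the groups overlapped. Without library 1 or without library 3 at 0 h its fold was under 2. Rasgrp2, an exchange factor for Rap1, was at 115, 123 and 88.1 CPM at 0 h and 15.7, 14.7 and 30.5 CPM at 4 h (log2 change -2.42, SE 0.17/0.22, adjusted p 1.69e-46/4.24e-08), and Dgka, a diacylglycerol kinase that dampens the signal, went from 1140.4 to 538 CPM (log2 change -1.08, SE 0.15/0.14, adjusted p 2.17e-12/4.01e-06).

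**Figure D2:**
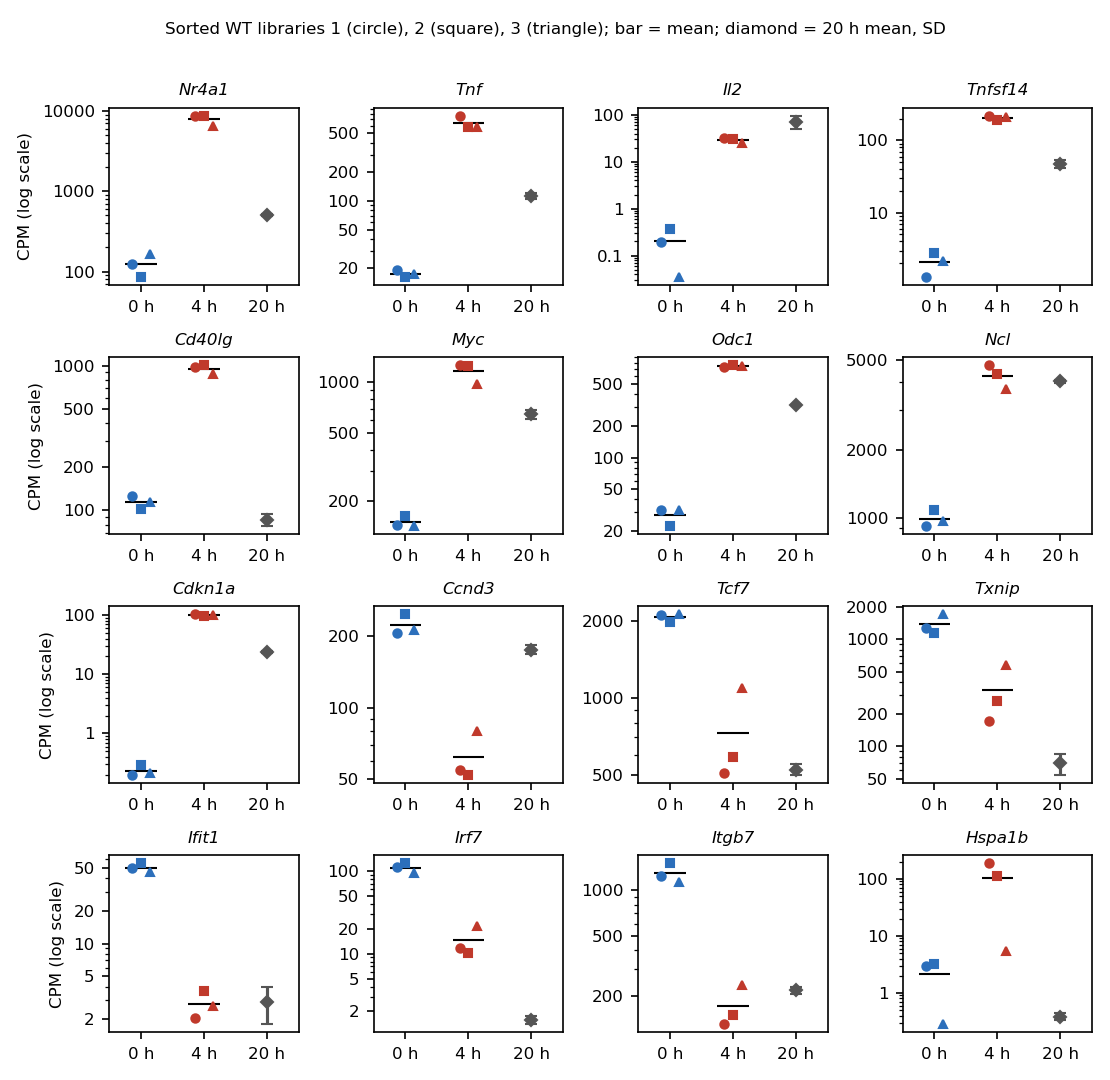
CPM (vertical axes, log scale) of 16 genes in the 3 sorted WT libraries at 0 h (blue) and 4 h (red), with circle, square and triangle for libraries 1, 2 and 3 and a bar for the mean, and the mean and SD of the 3 libraries at 20 h (gray diamond). The groups at 0 h and 4 h do not overlap in any of these genes, and library 3 at 4 h lies nearest to the 0 h level in Tcf7, Txnip and Hspa1b.

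Among growth genes, Myc, the transcription factor that drives growth of activated T cells, was at 144, 164 and 143 CPM at 0 h and 1261, 1244 and 975 CPM at 4 h (log2 change 2.95, SE 0.16/0.18, adjusted p 4.16e-75/1.48e-10) and was the 1 gene called higher among 11 of its network, in which Mxd4, an antagonist, was the 1 called lower (116, 98.9 and 110.2 CPM at 0 h and 25.7, 27.7 and 52.9 CPM at 4 h, log2 change -1.61, SE 0.16/0.20, adjusted p 5.53e-23/1.84e-06) and the median was 0.02. Ribosome biogenesis genes were higher in 36 of 40 and lower in 0, with a median of 1.75. Ncl, nucleolin, was at 919, 1081 and 964 CPM at 0 h and 4748, 4329 and 3729 CPM at 4 h (log2 change 2.11, SE 0.15/0.12, adjusted p 1.69e-43/1.18e-10), and Nolc1, a nucleolar phosphoprotein gene, at 144, 152 and 111 CPM at 0 h and 719, 594 and 521 CPM at 4 h (log2 change 2.17, SE 0.15/0.17, adjusted p 4.31e-43/3.16e-09). The 4 genes not called were Polr1a, Polr1c, Nop10 and Ubtf, with log2 changes of 0.70, 0.68, 0.91 and -0.47. Values of 0 h and 4 h did not overlap in any of the 40 genes, and library 3 was the lowest at 4 h in 39 of them. Over all genes tested, many with few reads, values did not overlap in 17.5% on the higher and 16.2% on the lower side. The share among genes with at least 50 counts was not computed. Between 35 and 39 genes of the list were higher in each of the 13 alternative settings.

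Translation factors were higher in 10 of 16 and lower in 0, with a median of 1.26. Eif4e, the cap-binding protein, was at 37.7, 45.4 and 42.8 CPM at 0 h and 230.0, 208 and 179 CPM at 4 h (log2 change 2.29, SE 0.16/0.13, adjusted p 2.19e-45/7.96e-11), while the elongation factors Eef1a1 and Eef2, at 5731 and 7156 CPM at 0 h, were not called (log2 changes -0.02 and -0.18). Polyamine synthesis genes were higher in 5 of 10 and lower in 1, with a median of 1.29. Odc1, its rate-limiting enzyme, was at 31.3, 22.2 and 31.4 CPM at 0 h and 723, 759 and 739.9 CPM at 4 h (log2 change 4.71, SE 0.17/0.29, adjusted p 1.71e-159/2.26e-10), and Srm, spermidine synthase, at 62.3, 85.4 and 57.0 CPM at 0 h and 544, 478 and 409 CPM at 4 h (log2 change 2.81, SE 0.16/0.26, adjusted p 1.2e-67/3.62e-08). Among 30 amino acid and one-carbon genes, 14 were higher and 1 lower, with a median of 0.97. Slc7a5, the light chain of the large neutral amino acid transporter, was at 102, 94.5 and 103 CPM at 0 h and 706, 791 and 514 CPM at 4 h (log2 change 2.75, SE 0.16/0.20, adjusted p 1.23e-65/1.56e-09), and Shmt1, a serine hydroxymethyltransferase, at 17.9, 16.4 and 16.4 CPM at 0 h and 475, 437 and 353 CPM at 4 h (log2 change 4.64, SE 0.17/0.39, adjusted p 9.42e-153/1.04e-08). In all of these genes named with a call the 4 h libraries lay above every 0 h library. Mthfd2 and Phgdh were not called (log2 change 0.78, SE 0.15/0.14, adjusted p 1.6e-06/6.37e-05, and log2 change -0.51, SE 0.16/0.24, adjusted p 0.00849/0.0899).

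Genes of glycolysis did not rise together, with 8 of 22 higher, 5 lower and a median of 0.14. Hk2, the inducible hexokinase, was at 0.863, 0.496 and 0.875 CPM at 0 h and 37.9, 40.7 and 20.5 CPM at 4 h (log2 change 5.45, SE 0.23/0.55, adjusted p 9.64e-119/1.11e-07) and reached 127 ± 9.56 CPM (SD, n = 3) at 20 h. Ldha, lactate dehydrogenase A, was at 629, 845 and 630.3 CPM at 0 h and 1789, 1913 and 1595 CPM at 4 h (log2 change 1.33, SE 0.15/0.15, adjusted p 2.96e-18/4.91e-07). The lactate transporters Slc16a1 and Slc16a3 rose from 44.5 to 436 and from 3.5 to 39.3 CPM (log2 change 3.29, SE 0.16/0.18, adjusted p 1.48e-88/6.71e-11, and log2 change 3.49, SE 0.22/0.23, adjusted p 8.96e-54/5.65e-10). Eno1 fell (206, 285 and 194 CPM at 0 h and 77.0, 68.4 and 76.3 CPM at 4 h, log2 change -1.63, SE 0.15/0.15, adjusted p 4.83e-25/2.9e-08) and was at 365 ± 23.3 CPM at 20 h. Gapdh was at 11.9 CPM at 0 h. Since the counting of reads that match several places is not given in the sources used here, Gapdh, Eno1, Pgk1 and Pgam1, which have near-identical copies, are uncertain in level. Sterol and fatty acid synthesis genes were higher in 8 of 29 and lower in 6, with a median of 0.37. Sqle, squalene epoxidase of cholesterol synthesis, rose (25.2, 35.2 and 30.6 CPM at 0 h and 90.9, 116 and 85.9 CPM at 4 h, log2 change 1.68, SE 0.16/0.19, adjusted p 1.21e-24/3.05e-07), while Mvd and Dhcr7 of the same pathway fell (log2 change -1.93, SE 0.18/0.18, adjusted p 1.46e-24/5.69e-08, and log2 change -1.89, SE 0.17/0.14, adjusted p 9.69e-28/3.09e-09), as did Abca1, which exports cholesterol (log2 change -2.19, SE 0.19/0.37, adjusted p 7.72e-29/5.41e-05).

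Heat shock proteins and chaperones were higher in 17 of 20 and lower in 0, with a median of 1.56. Hspa5, the chaperone of the endoplasmic reticulum, went from 599 to 2389.8 CPM (log2 change 2.00, SE 0.15/0.15, adjusted p 1.96e-38/3.15e-09), Hspd1 of mitochondria from 102 to 581 CPM (log2 change 2.51, SE 0.16/0.51, adjusted p 1.77e-56/0.000285), and Hspa8 was at 423, 717 and 387 CPM at 0 h and 1246, 1132 and 1363 CPM at 4 h (log2 change 1.29, SE 0.15/0.28, adjusted p 3.96e-17/0.000597). Subunits of the chaperonin CCT rose too, with log2 changes from 1.07 (Cct2) to 1.64 (Cct3). Unlike these, the stress-inducible pair Hspa1a and Hspa1b varied among replicates. Hspa1a was at 0.471, 0.372 and 0.105 CPM at 0 h and 117, 77.6 and 2.87 CPM at 4 h, and Hspa1b at 2.90, 3.22 and 0.280 CPM at 0 h and 187, 114 and 5.36 CPM at 4 h (log2 change 5.60, SE 0.20/1.23, adjusted p 9.63e-176/0.000679). Library 3 at 4 h lay far below the other libraries of its group in both, and at 20 h they were at 0.112 ± 0.163 and 0.384 ± 0.0515 CPM (SD, n = 3). The 2 genes are near-identical copies, so the counts of each are uncertain.

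Upstream sequences were examined for genes that moved together, using the RefSeq windows of GRCm38.p6 restricted to the 250 bases before each start site, with 1 window for each of 27025 symbols. Of 4817 called genes, 3421 matched a window. The palindrome CACGTG (E-box), which MYC and other factors can bind, was found in 11.6% of 1243 higher genes that averaged at least 50 counts, in 6.70% of 1402 such lower genes, in 9.02% of all 7891 such genes and in 6.05% of all windows. The palindrome TGACGTCA (CRE), which CREB and ATF factors can bind, was found in 4.26% of higher, 1.28% of lower, 3.04% of all such genes and 1.62% of all windows. Ribosome biogenesis windows held CACGTG in 3 of 35. Other motifs searched on both strands differed less, as TGANTCA (AP-1) in 4.18% of higher and 3.99% of lower genes, and GGAAAA (NFAT) in 19.8% and 18.3%. Matches describe letters in these windows and not bound sites. Ldha (chr7:46845554-46845803, plus strand) and Nop2 (chr6:125131633-125131882, plus strand), a ribosome biogenesis gene whose mean rose from 87.3 to 396 CPM, are shown as examples of higher genes whose window holds these letters, with CACGTG and TGACGTCA in capitals.
Ldha: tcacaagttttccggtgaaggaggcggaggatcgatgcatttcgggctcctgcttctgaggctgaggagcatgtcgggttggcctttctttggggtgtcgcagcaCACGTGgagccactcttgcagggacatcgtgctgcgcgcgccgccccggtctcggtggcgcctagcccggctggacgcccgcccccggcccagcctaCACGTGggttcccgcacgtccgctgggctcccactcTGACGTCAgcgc
Nop2: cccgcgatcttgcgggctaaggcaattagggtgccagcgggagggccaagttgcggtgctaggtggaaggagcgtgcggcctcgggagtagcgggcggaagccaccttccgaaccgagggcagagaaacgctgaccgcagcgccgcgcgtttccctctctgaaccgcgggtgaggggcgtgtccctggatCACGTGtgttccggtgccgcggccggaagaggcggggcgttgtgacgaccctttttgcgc

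Of 25 G1 cyclin and CDK genes, 3 were higher and 7 lower, with a median of -0.14. The median was -0.33 when 1 gene with at most 3 counts at each time was left out. Ccnd2, a D-type cyclin, was at 616, 553 and 638 CPM at 0 h and 1615, 1920.2 and 1533 CPM at 4 h (log2 change 1.49, SE 0.15/0.16, adjusted p 3.09e-22/2.87e-07), whereas its relative Ccnd3 was at 207, 247 and 213 CPM at 0 h and 54.5, 52.1 and 80.0 CPM at 4 h (log2 change -1.84, SE 0.15/0.15, adjusted p 3.88e-31/6.81e-09). The 2 cyclins moved in opposite directions in every library, and Cdk4 stayed under the threshold (log2 change 0.84, SE 0.15/0.16, adjusted p 1.21e-07/0.000116). Cdkn2d, E2f2 and Rbl2 were among the lower genes (log2 change -2.42, SE 0.16/0.16, adjusted p 5.33e-49/7.12e-10, then log2 change -2.69, SE 0.19/0.29, adjusted p 1.97e-45/3.32e-07, then log2 change -1.86, SE 0.16/0.24, adjusted p 1.96e-30/2.28e-06). Of 28 DNA replication genes, 1 was higher and 1 lower, with a median of -0.03. Pcna, the sliding clamp, was the higher one (log2 change 1.26, SE 0.15/0.14, adjusted p 8.71e-16/2.72e-07), and Mcm5, part of the replicative helicase, was at 66.3, 67.4 and 57.1 CPM at 0 h and 89.5, 103 and 101 CPM at 4 h (log2 change 0.62, SE 0.15/0.23, adjusted p 0.000167/0.0237) but at 1249 ± 44.9 CPM (SD, n = 3) at 20 h. Of 20 mitosis genes, 0 were higher and 3 lower, with a median of -0.47, and 16 of the 20 had fewer than 50 counts on average. Mki67, a marker of cycling cells, was at 2.04, 1.28 and 0.805 CPM at 0 h and 0.374, 0.412 and 0.717 CPM at 4 h (log2 change -1.42, SE 0.39/0.51, adjusted p 0.00132/0.0257), a call not kept without library 1 at 0 h. Without library 3 at 4 h, 5 mitosis genes were lower.

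Of 26 quiescence factors, 3 were higher and 8 lower, with a median of -0.61. Tcf7, which encodes TCF-1, was at 2105, 1979 and 2128 CPM at 0 h and 507, 589 and 1091 CPM at 4 h (log2 change -1.51, SE 0.15/0.20, adjusted p 3.56e-23/3.96e-06). Txnip, an inhibitor of glucose uptake that responds to nutrients, was at 1284, 1141 and 1716 CPM at 0 h and 174, 264 and 578 CPM at 4 h (log2 change -2.03, SE 0.15/0.31, adjusted p 1.48e-39/2.08e-05). In both, library 3 at 4 h was the highest of the 4 h libraries and still below every 0 h library. Klf2, the factor of naive T cell trafficking, was at 525, 657 and 506 CPM at 0 h and 198, 192 and 607 CPM at 4 h, so that the groups overlapped, and it was not called (log2 change -0.76, SE 0.15/0.30, adjusted p 1.75e-06/0.039). Without library 3 at 4 h it was called lower (log2 change -1.56, adjusted p 1.4e-21, in the fit of all genes with a read), and 12 genes of this list were lower in place of 8. Pik3ip1 and Ets1 fell (log2 change -1.74, SE 0.15/0.23, adjusted p 2.88e-28/4.05e-06, and log2 change -1.35, SE 0.15/0.19, adjusted p 6.79e-19/1.06e-05), and Btg2, Tob2 and Runx1 were the genes called higher. Library 3 was the highest of the 4 h libraries in 19 of the 26 genes.

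Of 16 homing and survival receptors of naive cells, 1 was higher and 7 lower, with a median of -0.77. Cd69, which retains activated cells in lymphoid tissue, was the one that rose (118, 147 and 174 CPM at 0 h and 1728, 1738 and 1399.6 CPM at 4 h, log2 change 3.47, SE 0.16/0.34, adjusted p 1.07e-99/7.2e-08). Itgb7, the integrin β7 chain, was at 1240.4, 1498 and 1128 CPM at 0 h and 129.6, 149 and 237 CPM at 4 h (log2 change -2.91, SE 0.16/0.19, adjusted p 1.39e-74/6.43e-10), and per kb of exon it fell from rank 62 to rank 1040 of all genes. Itga4, its partner, and Selplg, a selectin ligand, fell with it (log2 change -1.51, SE 0.15/0.29, adjusted p 7.1e-22/0.000257, and log2 change -1.73, SE 0.15/0.17, adjusted p 1.98e-29/6.8e-08). S1pr1, the exit receptor of lymph nodes, was at 740.0, 667 and 816 CPM at 0 h and 344, 402 and 786 CPM at 4 h (log2 change -0.54, SE 0.15/0.21, adjusted p 0.00112/0.0429), under the fold threshold and with library 3 at 4 h well above libraries 1 and 2. Without that library it was called lower (log2 change -1.02, adjusted p 2.24e-10, in the fit of all genes with a read), and 9 genes of this list were lower in place of 7. At 20 h it was at 55.9 ± 1.62 CPM (SD, n = 3). P2rx7, the ATP-gated channel, fell furthest in the list (from 30.5 to 1.82 CPM, log2 change -4.09, SE 0.25/0.41, adjusted p 5.59e-60/1.12e-07). Of the 8 GIMAP GTPase genes of lymphocyte survival, 1 was lower and 0 higher, with a median of -0.43, and 2 were lower without library 3 at 4 h.

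**Figure D3:**
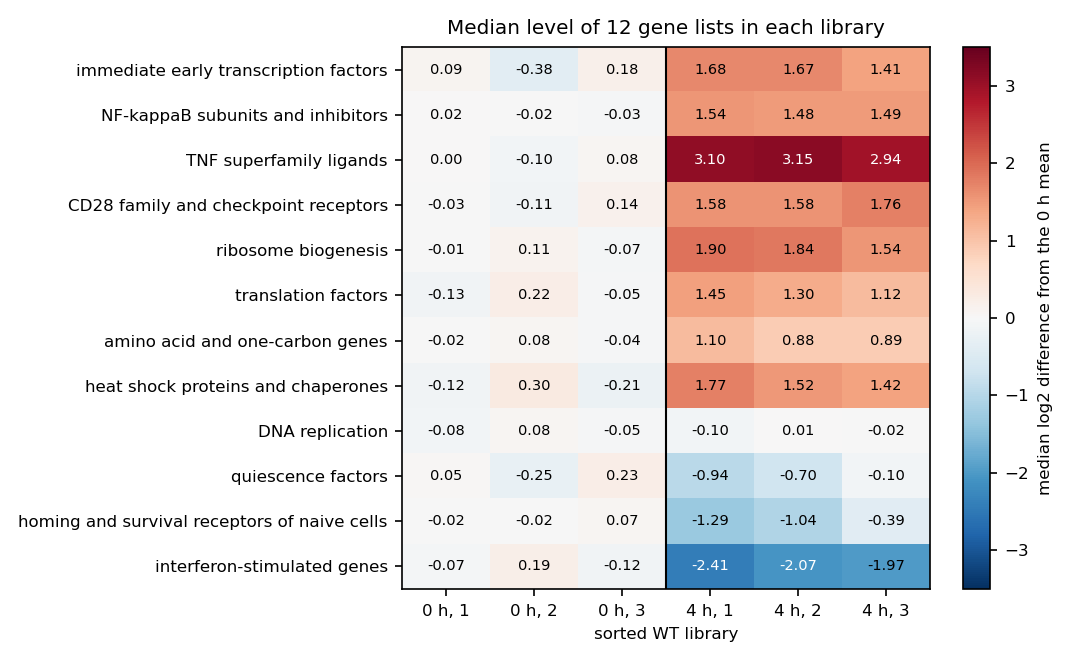
Median over each of 12 gene lists of the log2 difference (log2 of CPM + 0.5) between a library and the mean of the 3 libraries at 0 h, in the 6 sorted WT libraries (columns, 0 h left and 4 h right), using list genes that averaged at least 50 counts; red is higher and blue lower. Library 3 at 4 h has the mildest values for ribosome biogenesis (1.54), quiescence factors (-0.10) and homing receptors (-0.39), and library 2 at 0 h differs from its group for immediate early factors (-0.38).

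Interferon-stimulated genes were the list that fell most. Of 22 genes, 20 were lower and 0 higher, with a median of -2.37, and between 20 and 22 were lower in each of the 13 alternative settings. The values of 0 h and 4 h did not overlap in any of the 22, against 16.2% of all genes tested on the lower side. Ifit1, which binds foreign RNA caps, was at 49.5, 54.7 and 45.6 CPM at 0 h and 2.06, 3.67 and 2.68 CPM at 4 h (log2 change -4.15, SE 0.21/0.34, adjusted p 6.81e-85/9.18e-09). Isg15, the ubiquitin-like modifier, was at 40.8, 62.2 and 38.2 CPM at 0 h and 5.84, 8.48 and 11.2 CPM at 4 h (log2 change -2.46, SE 0.19/0.26, adjusted p 1.54e-35/2.75e-07). Irf7, the factor that amplifies type I interferon, was at 113, 124 and 94.1 CPM at 0 h and 11.8, 10.2 and 21.7 CPM at 4 h (log2 change -2.91, SE 0.17/0.30, adjusted p 1.56e-64/1.41e-07). All 3 were still low at 20 h, at 2.90 ± 1.10, 1.57 ± 0.522 and 1.58 ± 0.192 CPM (SD, n = 3). Usp18, Zbp1, Xaf1 and Rsad2 fell alike (-3.77, -3.18, -3.54 and -3.09 on the log2 scale). The 2 genes not called were Gbp2 and Ifih1 (log2 change -0.93, SE 0.15/0.45, adjusted p 5.59e-09/0.094, and log2 change -0.95, SE 0.18/0.18, adjusted p 1.2e-06/0.000235). Factors that carry the interferon signal fell too, with Stat2 going from 50.4 to 13.5 CPM and Irf9 from 165 to 56.6 CPM (log2 change -1.89, SE 0.17/0.27, adjusted p 6.5e-27/7.27e-06, and log2 change -1.54, SE 0.15/0.22, adjusted p 2.13e-22/8.11e-06). The receptor genes Ifnar1 and Ifnar2 went from 169 to 121 and from 67.4 to 32.6 CPM, and Ifnar2 alone was called.

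The windows before the start sites of these genes shared letters. GAAANNGAA, which is contained in the interferon-stimulated response element and was searched on both strands, was found in 10 of the 17 interferon-stimulated genes with a window (58.8%), against 7.16% of all windows, 7.99% of lower and 5.71% of higher genes with at least 50 counts. Ifit1 (chr19:34640639-34640888, plus strand), Isg15 (chr4:156200819-156201068, minus strand) and Rsad2 (chr12:26456453-26456702, minus strand) are shown because they hold it, with the matched letters of either strand in capitals, and overlapping matches run together.
Ifit1: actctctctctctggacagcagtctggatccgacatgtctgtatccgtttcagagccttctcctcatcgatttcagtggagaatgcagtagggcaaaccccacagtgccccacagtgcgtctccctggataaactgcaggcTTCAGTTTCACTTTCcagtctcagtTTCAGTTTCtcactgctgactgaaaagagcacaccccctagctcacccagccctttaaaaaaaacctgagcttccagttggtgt
Isg15: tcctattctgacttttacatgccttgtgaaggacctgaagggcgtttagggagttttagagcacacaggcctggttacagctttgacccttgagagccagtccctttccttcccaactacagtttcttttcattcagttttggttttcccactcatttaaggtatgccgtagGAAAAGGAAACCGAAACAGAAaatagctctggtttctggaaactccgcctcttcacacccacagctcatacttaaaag
Rsad2: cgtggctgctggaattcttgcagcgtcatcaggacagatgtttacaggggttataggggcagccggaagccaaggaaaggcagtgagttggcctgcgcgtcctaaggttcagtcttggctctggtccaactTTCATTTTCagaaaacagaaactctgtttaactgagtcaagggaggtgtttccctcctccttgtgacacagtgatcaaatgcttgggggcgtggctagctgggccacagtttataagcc

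Of 18 SOCS and STAT genes, 5 were higher and 4 lower, with a median of 0.52. Socs3, an inhibitor of cytokine signaling, was at 155, 159 and 215 CPM at 0 h and 15.8, 14.7 and 36.4 CPM at 4 h (log2 change -2.98, SE 0.16/0.27, adjusted p 6.68e-73/3.53e-08), while Socs1 went from 48.8 to 122 CPM (log2 change 1.32, SE 0.16/0.27, adjusted p 6.05e-16/0.000366) and the kinase gene Pim3 from 53.3 to 326 CPM (log2 change 2.61, SE 0.16/0.16, adjusted p 1.28e-58/1.63e-10). Among 13 genes of mRNA decay, 2 were higher and 2 lower, with a median of 0.61. Zfp36l1 rose and its relative Zfp36l2 fell, at 256, 202 and 272 CPM at 0 h and 1837, 1988 and 1463 CPM at 4 h for the first (log2 change 2.86, SE 0.16/0.15, adjusted p 9.56e-72/4.65e-11) and 654, 327 and 821 CPM at 0 h and 169, 218 and 261 CPM at 4 h for the second (log2 change -1.47, SE 0.15/0.26, adjusted p 2.2e-21/9.26e-05). The 2 genes of this RNA-binding family thus moved in opposite directions in every library. Of 13 BCL2 family genes, 4 were higher and 2 lower, with a median of 0.47, and Bcl2l1, which encodes BCL-xL, was among the higher (log2 change 1.59, SE 0.15/0.27, adjusted p 1.4e-23/3.97e-05), while Bcl2 and Mcl1 were not called (log2 change -0.11, SE 0.15/0.17, adjusted p 0.688/0.697, and log2 change -0.18, SE 0.15/0.12, adjusted p 0.446/0.275). A list of 22 genes that cell handling can raise overlaps the immediate early and heat shock lists and had 10 genes higher and 5 lower, with a median of 0.46.

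At 20 h, which shares the 0 h libraries with the 4 h comparison and is given as levels without a test, the called genes had not all kept their 4 h level. Of the 1626 higher genes with at least 50 counts, the 20 h mean was above both other means for 500, between them for 915 and below both for 211. Of the 1788 lower genes, it was below both for 659, between them for 857 and above both for 272. The share of counts taken by the higher genes was 25.9% to 26.6% at 20 h, and that of the lower genes 7.52% to 8.09%.

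The 4 h change of sorted WT cells was set against that of magnetically enriched WT cells of the other experiment, to ask whether the way of purification went along with a different early response. The 2 experiments also used mice of different genotype labels and are numbered separately, which cannot be told apart from the sort. By itself, the enriched comparison called 2661 of 32290 genes higher (8.24%) and 3587 lower (11.1%). Of genes higher in sorted cells, 1902 were also higher in enriched cells (85.1% of the sorted and 71.5% of the enriched list), and 2115 were lower in both (81.9% and 59.0%), with 17 and 2 genes called in opposite directions. Across 10576 genes, which are not independent replicates, the log2 changes had a Pearson r of 0.919 and the same sign in 91.6%. The difference of the changes was tested in 1 fit of the 12 libraries. Of 28564 genes, 185 had a more positive change in sorted cells (0.648%), be it a larger rise or a smaller fall, and 52 a more negative one (0.182%). These numbers were 97 and 26 genes with DESeq2 and 18 and 2 after the filter on low counts. The fit of all genes with a read had infinite prior degrees of freedom here too (a median of 5.51 after the filter), and most of the differences named next were not called in the filtered fit.

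Genes raised by cell handling held 9 of the genes with a more positive change in sorted cells, of 22, and 0 with a smaller one, in the fit of all genes with a read. With DESeq2 there were 3 and after the filter 0. Jun was at 165 to 338 CPM in sorted and 182 to 674 CPM in enriched cells at 0 h, and at 57.4 to 88.7 and 21.4 to 37.1 CPM at 4 h, a difference of log2 changes of 1.99 (SE 0.25/0.57, adjusted p 4.74e-12/0.373). Klf6 was at 182 to 287 and 224 to 942 CPM at 0 h and 215 to 315 and 94.5 to 169 CPM at 4 h, a difference of 2.14 (SE 0.25/0.55, adjusted p 5.8e-14/0.275). At 0 h the ranges of sorted and enriched libraries overlapped in both genes, and at 4 h every sorted library was above every enriched one. Hspa1b was at 5.24 to 179 CPM in sorted and 1.29 to 1.40 CPM in enriched cells at 4 h, a difference of 6.01 (SE 0.33/1.49, adjusted p 7.1e-69/0.242), with sorted library 3 near the low end. None of the 3 differences was called after the filter. Cdkn1a was at 0.192 to 0.297 CPM in sorted and 0.626 to 1.46 CPM in enriched cells at 0 h, and at 92.8 to 99.3 and 58.9 to 73.0 CPM at 4 h, a difference called in both fits (2.82 (SE 0.38/0.38, adjusted p 9.75e-11/0.00644)). In the naive cell lists, the differences of Klf2 and S1pr1 were 1.38 (SE 0.25/0.55, adjusted p 1.9e-05/0.674) and 1.30 (SE 0.26/0.40, adjusted p 9.36e-05/0.468), neither of them called after the filter.

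Of the 22 interferon-stimulated genes, 5 had a more negative change in sorted cells and 0 a more positive one in the fit of all genes with a read. With DESeq2 4 were more negative, and after the filter 0. Gbp2, a guanylate-binding protein gene induced by interferon γ, was at 110.0 to 160.1 CPM in sorted and 86.7 to 114 CPM in enriched cells at 0 h, and at 44.5 to 89.1 and 108 to 508 CPM at 4 h (-2.64 (SE 0.25/0.57, adjusted p 7.36e-22/0.143)). The differences were -1.92 (SE 0.25/0.39, adjusted p 1.77e-11/0.104) for Gbp4 and -1.05 (SE 0.25/0.36, adjusted p 0.00555/0.519) for Irf1, and none of the 3 was called after the filter. None of the 40 ribosome biogenesis genes differed, with a median difference of -0.28.

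Contents of other cells moved along with this comparison. Red blood cell markers summed to 1059 to 2547 CPM in enriched and at most 1.88 CPM in sorted libraries. B cell markers summed to 1198 to 4638 CPM in enriched and 707 to 966 CPM in sorted cells at 0 h, and to 483 to 1457 and 99.97 to 204 CPM at 4 h. Of the 12, 5 had a more positive change in sorted cells and 1 a more negative one in the fit of all genes with a read. Myeloid markers summed to 262 to 572 CPM in enriched cells at 0 h and 81.7 to 111 CPM at 4 h, against 66.0 to 130.4 and 61.5 to 79.2 CPM in sorted cells. Fn1, C3 and Cd36, genes known from myeloid cells among others, had few reads in sorted cells (1 count over the 0 h libraries for Fn1 and 0 for C3 and Cd36), where none of them exceeded 0.458 CPM. The part of these other cells in the differences of the gene lists was not tested.

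Finally, the change of sorted WT cells was set against that of sorted Lat-/- cells, to ask which parts of the early response differ where LAT is lacking. In Lat-/- cells, 856 genes were higher at 4 h (3.08%) and 1005 lower (3.62%). Among genes that rose in WT cells, 522 were higher in Lat-/- cells too (23.3% of the WT and 61.0% of the Lat-/- list), and 765 were lower in both (29.6% and 76.1%). The log2 changes of 10013 genes had a Pearson r of 0.745 and the same sign in 71.2%. The change differed upward in WT cells for 1207 genes (4.34%) and downward for 1214 (4.37%) of 27780, and for 1350 and 1841 without WT library 3 at 4 h.

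Ribosome biogenesis was the list with the most differences, 36 of 40 with a more positive change in WT cells and a median difference of 1.72. Ncl went from 880.5 ± 57.9 to 1487 ± 53.5 CPM (SD, n = 3) in Lat-/- cells, a difference of 1.36 (SE 0.20/0.17, adjusted p 1.41e-09/1.28e-05) from the WT change. Srm went from 58.9 ± 3.35 to 62.6 ± 2.43 CPM there (2.72 (SE 0.21/0.35, adjusted p 1.52e-33/1.9e-05)), and Myc from 114 ± 5.16 to 139 ± 31.4 CPM (2.67 (SE 0.21/0.23, adjusted p 3.97e-33/6.93e-07)). None of these 3 genes was called over time in Lat-/- cells. Of 12 TNF superfamily ligands, 6 had a more positive change in WT cells and 1 a more negative one, with a median difference of 2.16, and of 23 cytokine genes 3 and 3. Cd40lg went from 166 ± 8.59 to 159 ± 14.8 CPM in Lat-/- cells (3.13 (SE 0.21/0.18, adjusted p 9.34e-45/7.78e-09)), Tnf from 12.4 ± 5.68 to 49.7 ± 15.4 CPM (3.19 (SE 0.22/0.60, adjusted p 4.95e-43/0.000584)), and Tnfsf14 from 1.38 ± 0.309 to 6.13 ± 2.34 CPM (4.51 (SE 0.30/0.59, adjusted p 3.41e-48/2.22e-05)).

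Of 25 immediate early factors, 8 had a more positive change in WT cells and 4 a more negative one, with a median difference of 0.72, and 6 and 3 after the filter. Nr4a1 went from 25.8 ± 25.3 to 1199 ± 175 CPM in Lat-/- cells, lower than WT cells at both times but with a change that did not pass the test of the difference (0.43 (SE 0.21/0.71, adjusted p 0.172/0.694)). Egr3 went from 1.27 ± 0.268 to 181 ± 46.8 CPM, a larger log2 change than in WT cells from a lower start (-2.06 (SE 0.24/0.47, adjusted p 4.99e-15/0.00267)). Jun went from 387 ± 202 to 214 ± 151 CPM there and was not called over time (-1.02 (SE 0.21/0.61, adjusted p 2.44e-05/0.223)), a difference that was not called after the filter. At 4 h the Lat-/- mean was below the WT mean for Egr3 and above it for Jun.

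Of the 22 interferon-stimulated genes, 14 had a more negative change in WT cells and 0 a more positive one, with a median difference of -1.69. Ifit1 went from 52.9 ± 6.58 to 17.4 ± 5.33 CPM in Lat-/- cells (-2.55 (SE 0.27/0.44, adjusted p 2.95e-19/0.000251)). Gbp2 rose there, from 167 ± 32.6 to 613 ± 269.7 CPM (-2.81 (SE 0.21/0.65, adjusted p 2.56e-36/0.00285)), and so did Irf1, from 380.4 ± 44.4 to 811 ± 311 CPM (-2.30 (SE 0.21/0.38, adjusted p 5.82e-25/0.0002)). The WT means of both genes were lower at 4 h than at 0 h, a call in Irf1 but not in Gbp2. Among naive cell genes, 12 of 26 quiescence factors and 10 of 16 homing receptors changed more negatively in WT cells. Tcf7 stayed at 2165 ± 34.1 and 2152 ± 259 CPM in Lat-/- cells (-1.5 (SE 0.20/0.28, adjusted p 1.73e-11/0.000543)), and S1pr1 rose from 765 ± 18.6 to 1895 ± 91.2 CPM (-1.84 (SE 0.21/0.30, adjusted p 7.53e-17/0.000164)).

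**Figure D4:**
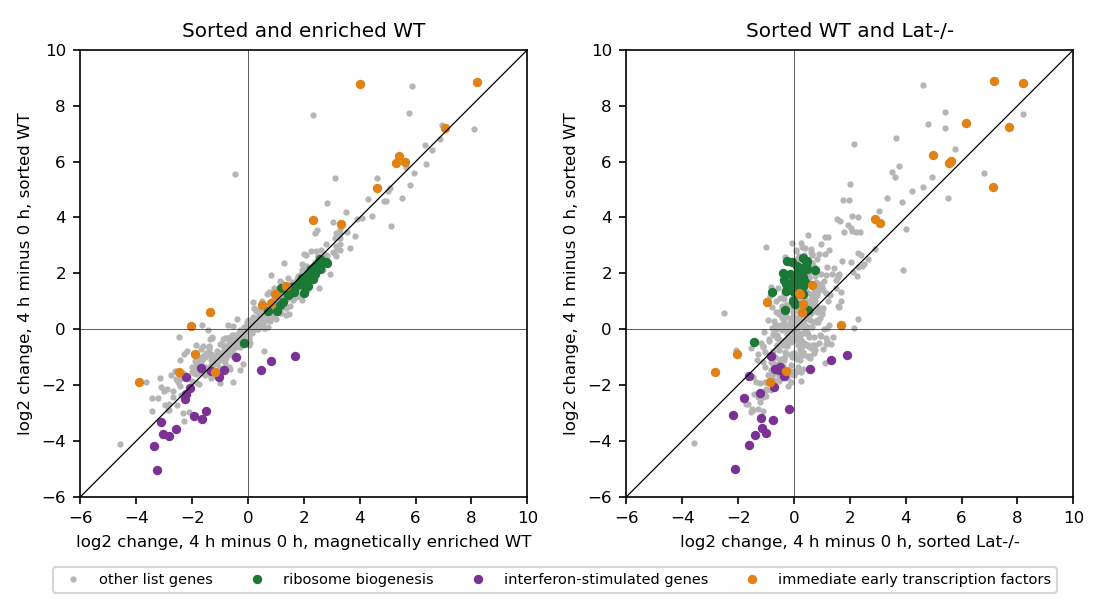
Log2 change from 0 h to 4 h of sorted WT cells (vertical axes) against that of magnetically enriched WT cells (left) and sorted Lat-/- cells (right) for 531 list genes that averaged at least 50 counts, with 3 lists in color and the line of equal change. Ribosome biogenesis genes (green) lie along the line on the left, where 0 of 40 differed, and above it near an Lat-/- change of 0 on the right, where 36 of 40 differed, and interferon-stimulated genes (purple) lie mostly below the line in both.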

How the data were processed

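RNA was sequenced from naive CD4+ T cells labeled WT, with 3 libraries at 0 h and 3 at 4 h. These cells were the hDTR+ cells of Lat fl-dtr maT-Cre mice, sorted by flow cytometry. The deposited tables hold whole-number counts, not normalized, which the authors made from stranded poly(A) libraries with bcl2fastq 2.17.1.14, STAR and featureCounts on GRCm38. The submitters' processing notes also name DESeq2. The annotation release, the use of strand and the treatment of multi-mapping reads are not given in the sources used here. Genes with at least 1 read were fitted over all 18 sorted libraries with edgeR 4.0.16 (R 4.3.3), using TMM factors and the quasi-likelihood test, so that all groups share 1 estimate of the spread. The prior degrees of freedom of this fit were infinite, so no gene's own spread entered its SE or p, and values from the planned fit after filterByExpr are printed second, for genes it keeps. Calls needed more than a 2-fold change and a Benjamini-Hochberg adjusted p below 0.05. Differences between sorted and enriched cells were tested in 1 fit of 12 libraries. Named genes were the 12 per direction with the largest fold among called genes that averaged at least 50 counts and moved the same way in every same-numbered pair of libraries, 6 per direction for each difference of changes, and examples from the lists. Genes in lists and the lists themselves were chosen with earlier results of these data known. DESeq2 1.42.0, other scalings, a filter on low counts, a replicate block and leaving out libraries were tried as alternatives, and the code was tested on simulated data. Promoter windows came from RefSeq. Some genes that meet the rule for named genes are not reported here.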

Additional observations from a re-analysis of the deposited data

Results flagged for a closer look

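The 4 h change differed between sorted and magnetically enriched WT cells, by a test of the difference itself, upward for 185 genes and downward for 52, and after the filter on low counts, where each gene's own spread counts, for 18 and 2. The differences of log2 changes, sorted minus enriched, were 8.15 for Fn1, 6.90 for C3, 6.87 for Cd36 and 6.01 for Hspa1b. On the other side they were -4.08 for Gbp11, -3.37 for Serpina3g, -3.33 for Hbegf, -2.99 for Fam129c, -2.88 for Iigp1 and -2.64 for Gbp2. Of these, Fn1 and Hbegf were also called after the filter. For Hbegf, reads of the human DTR transgene of the sorted WT cells and of the mouse gene cannot be told apart. Whether its difference lies in the mouse gene was not tested. Fn1 had 1 count and C3 and Cd36 had 0 counts over the sorted 0 h libraries, so their values are fitted ones that depend on the prior count. Sorted cells had 26 counts of Fn1 at 4 h. In enriched cells its mean fell from 6.90 CPM at 0 h to 0.525 CPM at 4 h (log2 change -3.72). The difference of Fn1 thus holds a fall in enriched cells as well as a change from few reads in sorted cells.

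The change also differed between sorted WT and Lat-/- cells, upward for 1207 genes and downward for 1214. The differences, WT minus Lat-/-, were 5.38 for Angptl2, 4.82 for Cxcr3, 4.51 for Tnfsf14, 4.42 for P2ry2, 4.29 for Gm17322 and 4.11 for Mir155hg. On the other side they were -3.87 for Itih5, -3.87 for Ifit3b, -3.49 for Ampd1, -3.29 for Gm11695, -3.06 for Apol9b and -3.01 for Gbp5. Gm17322 and Mir155hg lost their call without Lat-/- library 3 at 0 h, and their lowest differences over the alternatives were 2.59 and 2.61. The other differences named here were called in all 18 alternatives, the filter on low counts among them. The call by adjusted p alone, also among them, uses the main fit and keeps every call by construction.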

How the results depend on the processing

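The fits of all genes with a read gave each gene the trend's spread alone, and the filter gave larger adjusted p, as for Jun over time (1.57e-32 and 0.00155) and Hspa1b (9.63e-176 and 0.000679). With adjusted p alone, 3944 genes were higher and 4104 lower at 4 h, and 2107 and 2062 differed upward and downward between WT and Lat-/- cells. Leaving out 1 library at a time gave 1911 to 2262 higher and 2298 to 2869 lower genes, 144 to 229 and 42 to 75 differences between sorted and enriched cells, and 1050 to 1350 and 928 to 1841 between WT and Lat-/- cells, the 1841 without WT library 3 at 4 h. The sorted against enriched differences were 97 and 26 with DESeq2 and 18 and 2 after the filter on low counts, and the cause was not tested. Same-numbered libraries did not deviate together (correlations of -0.0763, -0.343 and 0.00638), and with the number as a replicate block 162 and 49 genes differed between sorted and enriched cells. Among the called genes that were followed, no value reversed under these alternatives, and 157 gene values lost their call while 4900 kept theirs. The call by adjusted p alone is counted among these alternatives. It uses the main fit without the fold threshold, so there every followed gene keeps its value and call by construction. Named genes without a call in the main fit were not part of this count.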

Other observations

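Beyond the lists, 16 genes had at most 3 counts over the 3 WT libraries at 0 h and a mean of at least 50 counts at 4 h, and 1 gene, Gm6545, showed the reverse. Among the 16 were Bdh2, Egr4, Eml1, Fosl1 and Samd4, described above. Plau, Crabp2 and Cyp11a1 were singled out here from the others after their values were seen.

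Plau, the urokinase plasminogen activator, was at 0.0392, 0 and 0.0350 CPM at 0 h and 5.37, 3.30 and 2.15 CPM at 4 h, with a 20 h mean of 0.0703 CPM. Crabp2, a binding protein of retinoic acid, was at 0.0784, 0 and 0.0350 CPM at 0 h and 7.48, 5.32 and 10.8 CPM at 4 h, with a 20 h mean of 25.8 CPM. The 20 h mean of Plau was near its 0 h values, while that of Crabp2 was above every 4 h library. Cyp11a1, the enzyme that starts steroid hormone synthesis, was at 0.0784, 0 and 0 CPM at 0 h and 3.41, 2.43 and 1.70 CPM at 4 h, with a 20 h mean of 0.281 CPM. These genes were picked by their counts at both times, so their changes are a description with no test.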
